A study of Mus musculus with 12 samples.

Results

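The genes described here are the pan-macrophage genes Adgre1, Itgam, Cd68 and Csf1r, the Fc gamma receptor genes Fcgr1, Fcgr3, Fcgr4 and Fcgr2b, and the adaptor genes Fcer1g and Tyrobp. They were found by symbol, 10 of 23282 lines of the count table, and all 10 passed the filter on low counts that kept 13464 genes. The table covers 12 MC38 tumors in 4 groups of 3, grown from a mouse colon cancer line injected subcutaneously into a flank of female C57BL/6 mice, which were labelled WT and were 6 weeks old when bought. Control tumors (Con) came from mice that received saline, with DMSO and Tween 80 as vehicle, and an isotype IgG2a antibody, SFIH tumors from mice given the same IgG2a and a sesquiterpene lactone fraction of the root of Inula helenium at 50 mg/kg each day, PD tumors from mice given 200 μg of anti-PD-1 antibody 2 times a week, and Comb tumors from mice given both, all by intraperitoneal injection and all sampled on day 19. All mice kept their own immune cells, and the RNA was taken from whole tumor tissue although the labels call the samples tumor cells. The labels number the samples of a group without saying that each came from its own mouse, so the p-values measure the spread between these samples, which may be technical in part.

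Macrophages are phagocytes that take up dying cells and foreign material, and they are often abundant in tumors. Their Fc gamma receptors bind the constant part of IgG, so that cells or particles coated with antibody are recognized. The activating receptors pair with the common gamma chain encoded by Fcer1g, whose cytoplasmic motif recruits the kinase Syk, whereas Fcgr2b carries an inhibitory motif in its own tail. Tyrobp encodes DAP12, a second adaptor of the same kind that serves receptors such as Trem2. In bulk tissue, fewer cells of a type and less RNA per cell cannot be told apart, and this holds for every level given below.

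Fcgr2b, Fcgr3 and Fcgr4 lie together on mouse chromosome 1, and Fcgr1 lies on chromosome 3. Promoters were looked up in RefSeq (GRCm38.p6) for 7 of the 10 genes, and those of the 4 Fc gamma receptor genes are shown because these genes differed among themselves in the data. Each line gives the 150 bases before the start site, 5′ to 3′ on the strand of the gene, at chr3:96293970-96294119 (minus strand) for Fcgr1, chr1:171059404-171059553 (minus) for Fcgr3, chr1:171018776-171018925 (plus) for Fcgr4 and chr1:170976072-170976221 (minus) for Fcgr2b.
Fcgr1: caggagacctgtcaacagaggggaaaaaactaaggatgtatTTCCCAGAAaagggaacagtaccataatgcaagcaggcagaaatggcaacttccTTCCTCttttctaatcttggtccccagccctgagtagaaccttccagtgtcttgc
Fcgr3: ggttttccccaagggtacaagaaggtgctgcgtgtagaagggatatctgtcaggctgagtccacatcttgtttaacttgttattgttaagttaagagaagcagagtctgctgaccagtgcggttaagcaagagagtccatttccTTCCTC
Fcgr4: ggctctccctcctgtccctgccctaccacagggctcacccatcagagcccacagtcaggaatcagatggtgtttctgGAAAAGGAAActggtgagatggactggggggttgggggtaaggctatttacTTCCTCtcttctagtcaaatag
Fcgr2b: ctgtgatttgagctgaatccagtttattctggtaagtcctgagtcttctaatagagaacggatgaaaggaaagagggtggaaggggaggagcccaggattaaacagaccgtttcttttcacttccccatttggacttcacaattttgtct
Capitals mark the letters found in a search for 3 motifs. The core of the PU.1 site (GAGGAA, or TTCCTC on the other strand) stood at base -55 in Fcgr1, -6 in Fcgr3 and -22 in Fcgr4, the interferon gamma activated site (GAS, TTCNNNGAA, which reads the same on both strands) at -109 in Fcgr1 as TTCCCAGAA, and the interferon-stimulated response element (ISRE, GAAA, any 2 bases and GAAA again, on either strand) at -73 in Fcgr4 as GAAAAGGAAA. In the full window of 250 bases before to 50 after the start, and counting any start site that RefSeq gives, the PU.1 core was found in 5 of the 7 genes, which were these 3, Itgam and Cd68. The other two motifs were each found in 1 of the 7. Among all 32851 promoters of this length, 28.3% held the PU.1 core, 8.30% the GAS letters and 3.44% the ISRE letters. A match of letters is a description of the sequence, and none of the letters searched was found in the Fcgr2b window.

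Libraries held 7870741 to 12261032 counted reads per tumor, of which the ribosomal RNA precursor Rn45s took 4.28% to 17.1%. They were made with the QuantSeq 3′ kit, which copies the 3′ end of a transcript, so counts were not divided by gene length and levels are given as CPM, the counts per 1000000 reads of the library size after TMM scaling. Comb replicate 3 stood apart, with the lowest TMM factor (0.758, against up to 1.12) and the lowest quality weight in limma voom (0.0596), followed by Comb replicate 1 (0.286). The 10 genes together took 0.0407% to 0.0765% of all reads in Con, 0.0915% in Comb replicate 1, 0.244% in Comb replicate 2 and 0.676% in Comb replicate 3. The comparisons that rest on the Comb group are therefore given with and without Comb replicate 3.

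All 10 genes followed one order of tumors at the top. Comb replicate 3 was the highest of the 12 tumors, Comb replicate 2 the second and PD replicate 2 the third in 10 of 10 genes. On library size without TMM scaling, these counts were 10, 9 and 9. Con replicate 2 was the lowest tumor in 8 of 10 genes, the exceptions being Cd68 and Fcgr2b. Pearson's r of log2(CPM + 1) between pairs of the 10 genes over the 12 tumors was between 0.848 and 0.990 in 45 pairs, with a median of 0.948. Without Comb replicate 3 it was between 0.731 and 0.982 with a median of 0.915. These are descriptions over tumors that share libraries and scaling.

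**Figure D1:**
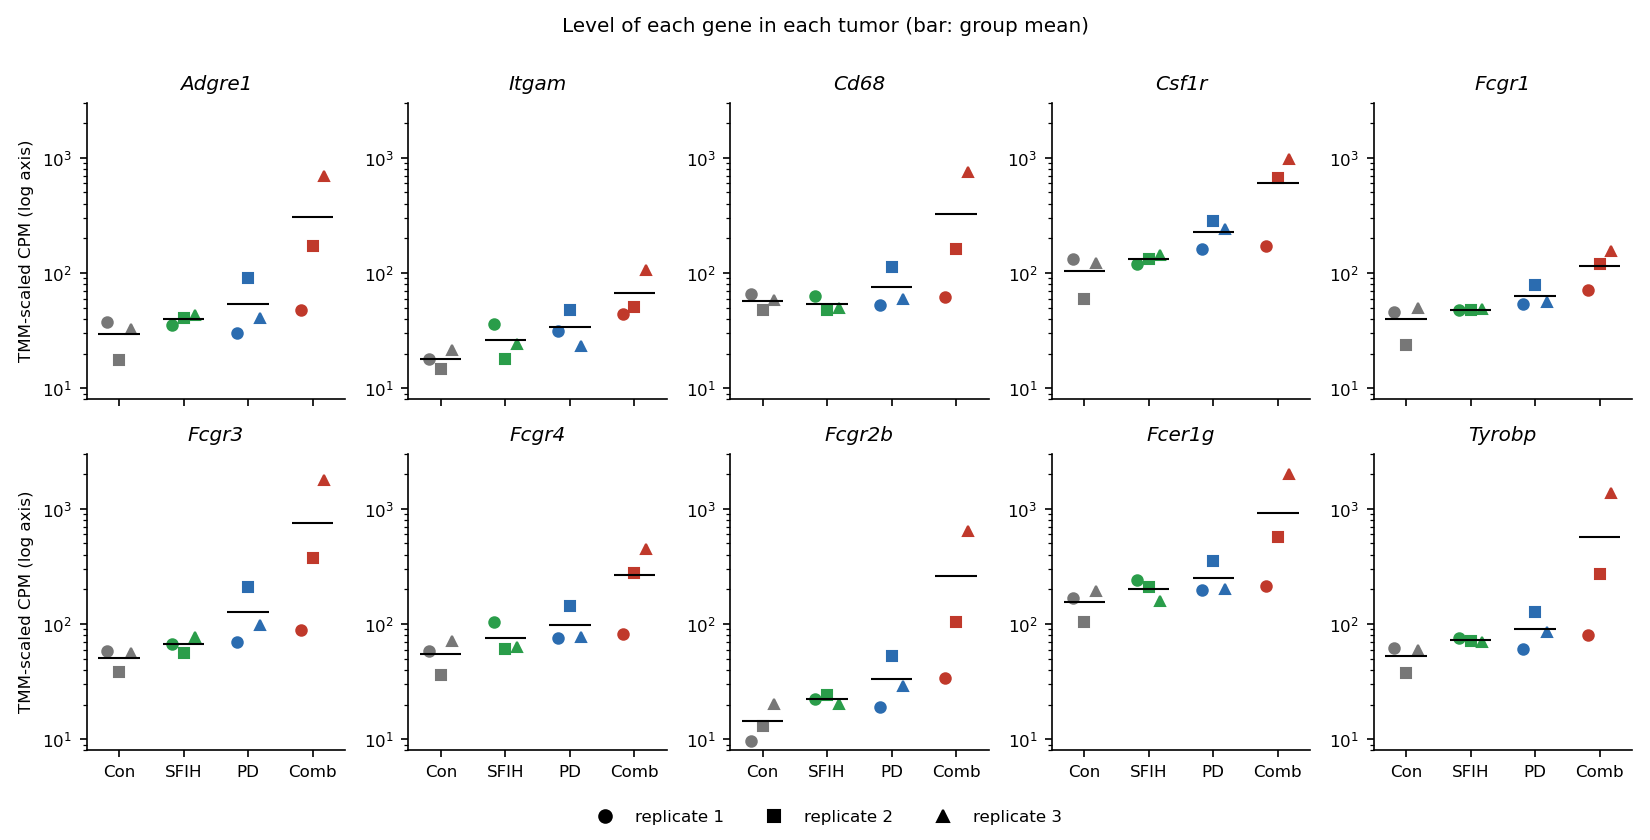
TMM-scaled CPM (log axis) of the 10 genes in the 12 tumors, by group on the horizontal axis, with 1 point per tumor, a symbol per replicate number and a bar at the group mean. Comb replicates 2 and 3 sit above all other tumors in every panel, and the ranges of the Con and SFIH tumors overlap in every panel but that of Tyrobp.

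Among the genes of macrophage identity, Adgre1 encodes F4/80, the surface protein by which mouse macrophages are usually sorted. Its CPM were 37.9, 17.7 and 33.0 for Con, 35.1, 40.6 and 43.3 for SFIH, 30.4, 90.6 and 40.8 for PD, and 48.2, 171 and 699 for Comb. The 3 Comb tumors spanned a wide range and all lay above the highest Con tumor, while PD replicate 1 lay within the Con range. Csf1r encodes the receptor for the growth factors CSF1 and IL-34, on which most macrophages depend. The CPM of this gene were 132, 59.1 and 121 for Con, 120.4, 133 and 143 for SFIH, 160.1, 283 and 241 for PD, and 173, 672 and 973 for Comb. All PD and all Comb tumors were above all Con tumors, and the highest SFIH tumor was above the highest Con tumor by a small margin. Csf1r was the gene with the second highest level in Con, SFIH and PD, after Fcer1g. Part of an exon of Csf1r overlaps the gene Hmgxb3 on the opposite strand, and whether strand was used in counting is not given in the sources used here.

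Itgam encodes CD11b, the alpha chain of the integrin Mac-1, which monocytes, neutrophils and many NK cells carry as well. CPM of Itgam were 17.9, 14.8 and 21.3 for Con, 36.1, 18.1 and 24.1 for SFIH, 31.4, 47.8 and 23.1 for PD, and 44.4, 50.8 and 106 for Comb. Comb replicate 1 lay closer to Comb replicate 2 than in any other of the 10 genes. Of 75-base stretches at the 3′ ends of its transcripts, 18.3% are also found in the overlapping gene model Gm49368. That model has no line in the count table, and reads from these stretches could have been lost. Cd68 encodes a glycoprotein of the lysosome membrane of phagocytes. The tumors had Cd68 levels of 65.2, 47.7 and 58.1 for Con, 62.7, 47.6 and 49.8 for SFIH, 53.0, 112 and 59.8 for PD, and 61.8, 160.2 and 760.1 for Comb. Here Con, SFIH, 2 of the PD tumors and Comb replicate 1 overlapped, and Comb replicate 1 lay below the highest Con tumor.

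The activating receptors differed from each other. Fcgr1 encodes the high-affinity IgG receptor CD64, a marker of macrophages and of monocyte-derived cells. Fcgr1 reached 45.6, 23.9 and 50.1 for Con, 47.5, 47.9 and 48.9 for SFIH, 53.7, 78.3 and 56.0 for PD, and 71.4, 119 and 156 for Comb tumors. Every tumor with anti-PD-1 was above every tumor without it, by a small margin for PD replicate 1, and the Comb tumors differed from each other by a smaller factor than in the other 9 genes. Fcgr3 encodes a low-affinity receptor that NK cells and mast cells carry in addition to macrophages. Levels of Fcgr3 were 58.0, 38.6 and 55.6 for Con, 67.6, 56.0 and 77.4 for SFIH, 69.8, 211 and 97.1 for PD, and 88.5, 372 and 1781 for Comb. The gap between Comb replicate 3 and the other 2 Comb tumors was much wider than for Fcgr1. Fcgr4 encodes an intermediate-affinity receptor of mouse monocytes, macrophages and neutrophils. In CPM it was 58.4, 36.0 and 71.2 for Con, 103, 61.1 and 63.0 for SFIH, 76.3, 142 and 77.9 for PD, and 82.5, 276 and 443 for Comb. SFIH replicate 1 was above all Con tumors and above 2 of the PD tumors, and the Comb tumors were again far apart.

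Fcgr2b, the inhibitory receptor, is also the only Fc gamma receptor of B cells. CPM of Fcgr2b were 9.64, 13.1 and 20.4 for Con, 22.5, 24.3 and 20.1 for SFIH, 19.0, 52.6 and 29.0 for PD, and 33.9, 103 and 641 for Comb. It was the least abundant of the 10 genes in Con, at 14.4 ± 5.50 (SD, n = 3), and in Comb replicate 3 it was close to Adgre1 and Cd68. Its Con tumors spread more than 2-fold, with Con replicate 1 the lowest. An exon of Fcgr2b overlaps the gene model Gm38204 on the opposite strand. No 75-base stretch at the 3′ ends of the 4 Fc gamma receptor genes was found in another gene or in each other, so reads of this length could be assigned among them.

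Of the adaptors, Fcer1g had the highest mean level of the 10 genes in each group. Its levels were 167, 103 and 193 for Con, 239.8, 209 and 159 for SFIH, 197, 352 and 202 for PD, and 213, 565 and 1985 for Comb. The Comb group began just above the highest Con tumor, and 2 SFIH tumors exceeded the lower 2 PD tumors. Tyrobp had a lower level, of 62.3, 37.5 and 59.7 for Con, 76.1, 70.5 and 70.2 for SFIH, 61.1, 127 and 85.7 for PD, and 79.6, 271 and 1368 for Comb. All 3 SFIH tumors were above the Con tumors, and PD replicate 1 was within the Con range. In every group, the ranges of most genes next to each other in the order of mean levels overlapped. The exceptions were all in SFIH, where Fcer1g and Csf1r, Csf1r and Fcgr4, and Fcgr1 and Adgre1 did not overlap.

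Relative to the mean of Con, the genes were spread far apart in Comb replicate 3 only. In Comb replicate 3 the fold of the Con mean was 44.5 for Fcgr2b, 35.1 for Fcgr3, 25.7 for Tyrobp and 23.6 for Adgre1. It was 13.3 for Cd68, 12.9 for Fcer1g, 9.33 for Csf1r, 8.03 for Fcgr4, 5.91 for Itgam and 3.91 for Fcgr1. The highest fold was thus 11.4 times the lowest in that tumor, against 2.61 in Comb replicate 2, 2.28 in Comb replicate 1, 2.20 in PD replicate 3, 2.12 in PD replicate 2 and 1.39 to 2.02 in the remaining tumors. In Comb replicate 2 the folds ran from 2.81 for Cd68 to 7.34 for Fcgr3, with a median of 5.04. In Comb replicate 1 they ran from 1.08 for Cd68 to 2.47 for Itgam with a median of 1.65, and in PD replicate 2 from 1.96 for Fcgr1 to 4.16 for Fcgr3 with a median of 2.62. Fcgr3 was among the 2 highest folds in PD replicate 2, Comb replicate 2 and Comb replicate 3, whereas Fcgr1 was the lowest in PD replicate 2 and Comb replicate 3 and the third lowest in Comb replicate 2.

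**Figure D2:**
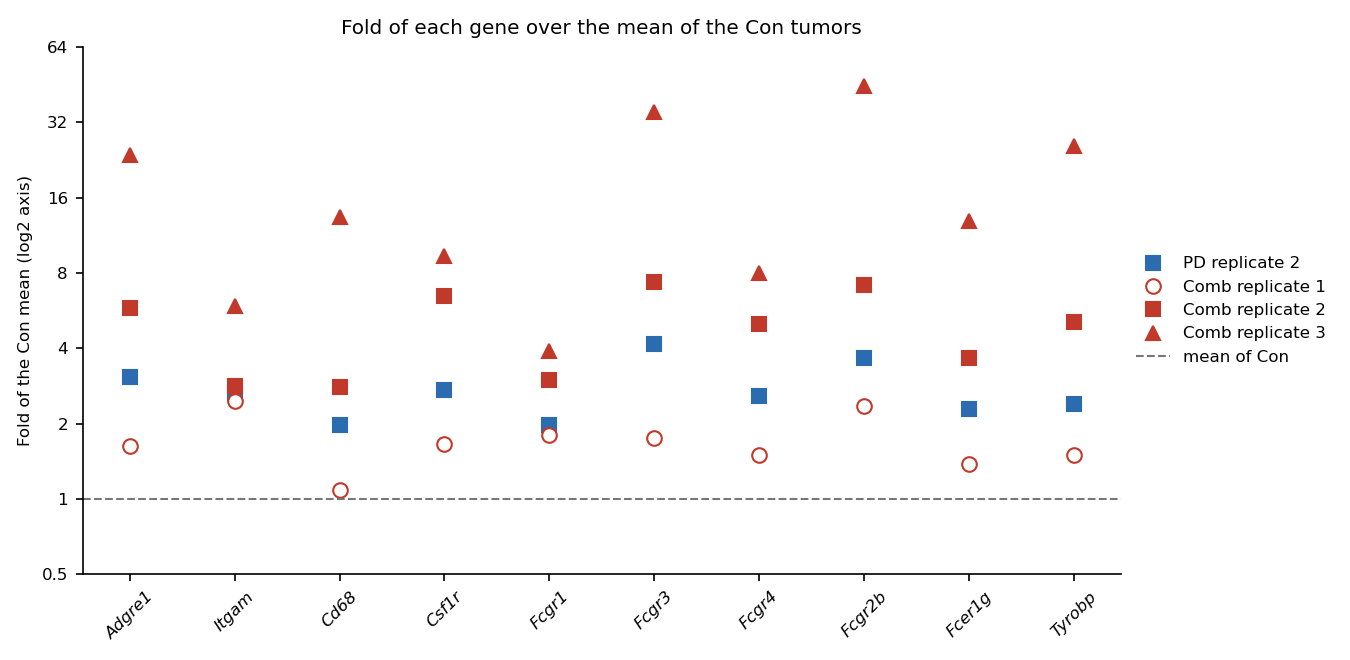
Fold of each gene over the mean of the 3 Con tumors (log2 axis) in PD replicate 2 and the 3 Comb tumors, with 1 point per gene and tumor and a dashed line at the Con mean. The points of Comb replicate 3 run from 3.91 for Fcgr1 to 44.5 for Fcgr2b, and those of Comb replicate 1 stay between 1.08 and 2.47.

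The make-up of the Fc gamma receptor reads was compared within each tumor, since a share of the 4 genes does not depend on library scaling. Fcgr2b made up 5.61%, 11.8% and 10.3% of these reads in Con, between 8.68% and 12.8% in SFIH, PD and Comb replicates 1 and 2, and 21.2% (95% confidence interval 20.7 to 21.7) in Comb replicate 3. The interval is a Wilson interval, which covers the sampling of reads only. Reads were counted without molecular identifiers, so it makes no allowance for copies of the same molecule. Fcgr3 made up 28.0% to 37.4% in the Con tumors, the SFIH tumors, PD replicates 1 and 3 and Comb replicate 1. It made up 43.6% in PD replicate 2, 42.8% in Comb replicate 2 and 58.9% (95% confidence interval 58.3 to 59.6) in Comb replicate 3. The 3 tumors with the highest levels of the 10 genes were therefore also the 3 with the largest share of Fcgr3.

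The share of Fcgr1 was instead lowest in these 3 tumors, with 26.6%, 21.4% and 25.4% in Con, 16.2% in PD replicate 2, 25.9% in Comb replicate 1, 13.7% in Comb replicate 2 and 5.16% in Comb replicate 3. Fcgr4 kept a share of 29.4% to 42.9% in 11 tumors and had 14.7% in Comb replicate 3. In reads per read of Fcgr2b, Fcgr4 was between 2.44 and 6.06 in the other tumors and 0.692 in Comb replicate 3, and Fcgr1 was between 1.15 and 4.74 in the other tumors and 0.243 there. Fcgr3 kept its relation to Fcgr2b, with 2.78 reads per Fcgr2b read in Comb replicate 3 and 2.31 to 6.02 elsewhere. Group means of the shares had wide errors, for example 9.24% ± 3.22 in Con and 15.1% ± 5.29 in Comb for Fcgr2b (SD, n = 3), and no test was made of them.

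**Figure D3:**
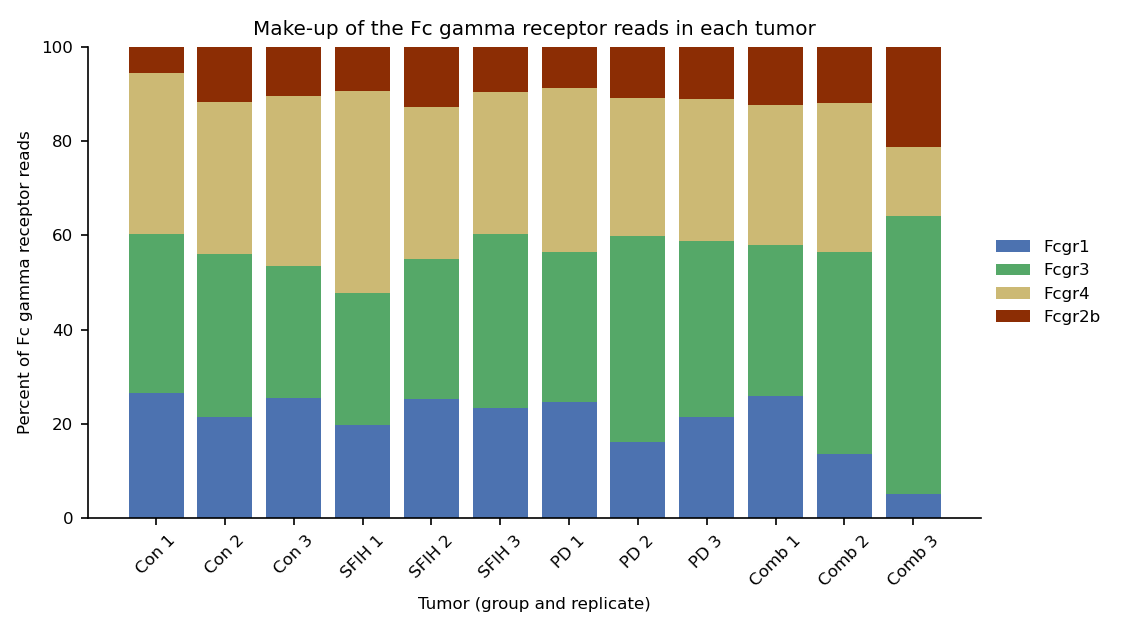
Share of Fcgr1, Fcgr3, Fcgr4 and Fcgr2b in the reads of the 4 Fc gamma receptor genes (percent, stacked to 100), with 1 bar per tumor. Comb replicate 3 differs from the other 11 bars by its large parts of Fcgr3 (58.9%) and Fcgr2b (21.2%).

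Ratios of reads to other genes are likewise free of library scaling. Per read of Ptprc, the CD45 gene of all leukocytes, Fcgr3 had 0.439, 0.579 and 0.432 reads in the Con tumors, 0.893 in PD replicate 2 and 0.756, 1.36 and 3.59 in the Comb tumors. For Tyrobp this ratio was 0.472, 0.562 and 0.463 in Con against 0.679, 0.992 and 2.76 in Comb. For Adgre1 it was 0.287, 0.266 and 0.256 against 0.412, 0.627 and 1.41. The SFIH tumors reached 0.896 for Fcgr3, 0.812 for Tyrobp and 0.501 for Adgre1, above Comb replicate 1 in all 3 genes, and for these 3 genes Comb replicates 2 and 3 were above every tumor of the other groups. For Fcer1g this held for Comb replicate 3 only, with 1.82, 2.07 and 3.997 in Comb and 2.35 in SFIH replicate 2. For Fcgr2b every Comb tumor was above every tumor of the other groups, with 0.289, 0.378 and 1.29 in Comb and 0.272 in SFIH replicate 2. Fcgr1 did not follow, with 0.346, 0.358 and 0.389 in Con and 0.610, 0.435 and 0.314 in Comb, where the highest ratio was in replicate 1 and the lowest in replicate 3. Itgam had 0.135, 0.223 and 0.165 in Con against 0.379, 0.186 and 0.214 in Comb, and it was also highest in Comb replicate 1. Csf1r stood between them, with 1.0, 0.887 and 0.941 in Con and 1.48, 2.46 and 1.96 in Comb, and SFIH replicates 2 and 3 (1.49 and 1.65) and PD replicate 3 (1.60) were above Comb replicate 1.

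Among the macrophage genes themselves, the reads of Csf1r per read of Adgre1 were 3.13 to 5.90 in 11 tumors and 1.39 in Comb replicate 3. Those of Itgam per read of Adgre1 were 0.297 to 1.03 in 11 tumors and 0.152 in that tumor. Cd68 and Adgre1 were closer, with 0.937 to 2.69 reads of Cd68 per read of Adgre1 in all 12 tumors. Comb replicate 3 therefore differed from the other tumors in the proportions of these genes as well as in their levels, and in Comb replicate 2 the ratio of Itgam was the next lowest.

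With SFIH alone, no difference from Con passed the test in the 10 genes, although most estimates were above 0. The log2 fold changes ran from -0.10 for Cd68 to 0.63 for Fcgr2b with a median of 0.41 (0.02 over all genes tested), and 9 of 10 were above 0, as were 53.0% of all genes. In edgeR's quasi-likelihood test with Benjamini-Hochberg adjustment over all genes, 0 of 10 genes had an adjusted p under 0.05, which was also the result over all genes (0.0%). At an unadjusted p under 0.05 it was 0 of 10 (2.25% of all genes), and 2 of 10 in a fit of only the groups compared (11.1%). DESeq2 and limma voom also called 0 of 10 (0.0297% and 0.0% of all genes). The largest was Fcgr2b at 0.63 ± 0.81 (SE), with an adjusted p of 1.0. All SFIH tumors were above all Con tumors in 1 of 10 genes (Tyrobp), against 8.55% of all genes, and in 2 of 10 on library size (Fcgr3 and Tyrobp), against 7.55%. The sign of Cd68 and of Fcgr1 changed when 1 Con tumor was left out.

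In PD against Con, which shows the antibody alone and shares its Con tumors with the comparison before, the 10 log2 fold changes were between 0.40 for Cd68 and 1.31 for Fcgr3, with a median of 0.85 (0.01 over all genes) and 10 of 10 above 0 (51.7% of all genes). Again 0 of 10 genes and 0.0% of all genes passed edgeR's adjusted threshold. At an unadjusted p under 0.05, edgeR had 2 of 10 (Csf1r and Itgam), against 3.99% of all genes. This count was 0 of 10 without PD replicate 2, Con replicate 1 or Con replicate 2 and with a filter on a mean of 50 counts, 5 of 10 without Comb replicate 1 (7.05% of all genes) or Comb replicate 3 (10.7%), and 6 of 10 in a fit of only the groups compared (12.7%). DESeq2 and limma voom called 0 of 10 (0.0446% and 0.616% of all genes). The estimate of Csf1r was 1.13 ± 0.51 (SE) and that of Itgam 0.92 ± 0.39, both with an adjusted p of 1.0 in edgeR. All PD tumors were above all Con tumors in 6 of 10 genes on TMM-scaled CPM (Itgam, Csf1r, Fcgr1, Fcgr3, Fcgr4 and Fcer1g), against 9.42% of all genes, and in 3 of 10 on library size (Itgam, Csf1r and Fcgr3), against 5.76%. Without PD replicate 2 the median was 0.47, with 0.72 for Fcgr3, 0.27 for Adgre1 and -0.014 for Cd68.

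The combination was compared with Con next. The estimates were 4.17 ± 0.90 for Fcgr2b, 3.88 ± 0.87 for Fcgr3, 3.43 ± 0.80 for Tyrobp and 3.37 ± 0.80 for Adgre1 (log2 fold change ± SE, 3 tumors against 3). They were 2.58 ± 0.65 for Fcer1g, 2.54 ± 0.53 for Csf1r, 2.52 ± 0.71 for Cd68, 2.27 ± 0.53 for Fcgr4, 1.90 ± 0.40 for Itgam and 1.53 ± 0.33 for Fcgr1. The median was 2.56, against -0.03 over all genes, and 10 of 10 were above 0 (48.0% of all genes). The tools differed on the call. By edgeR, 0 of 10 genes passed (0.0% of all genes), with adjusted p-values of 0.0665 to 0.0739, although 10 of 10 had an unadjusted p under 0.05, against 25.3% of all genes in either direction and 18% higher. By DESeq2, 10 of 10 genes were called, all higher (14.8% of all genes in either direction and 12% higher), with adjusted p-values of 1.63e-05 to 0.00338, and by limma voom with sample quality weights 10 of 10 (20.2% in either direction and 12.1% higher), with 0.00449 to 0.00985.

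Every Comb tumor was above every Con tumor in 9 of 10 genes (all but Cd68), against 11.7% of all genes, and in 9 of 10 on library size, against 7.60%. When Comb replicate 3 was left out, the median was 1.71 and the estimates ran from 0.96 for Cd68 to 2.25 for Fcgr2b. Those of Adgre1, Cd68, Fcgr3, Fcgr2b, Fcer1g and Tyrobp were lower by more than 1 on the log2 scale than with all tumors. In that fit edgeR still called 0 of 10 genes, against 0.0367% of all genes, with adjusted p-values of 0.0882 to 0.204. DESeq2 called 9 of 10 (all but Cd68, with 0.109), against 5.43% of all genes, and limma voom 0 of 10, against 0.0147%. At an unadjusted p under 0.05, edgeR had 10 of 10 without that tumor, against 18.8% of all genes. Without Comb replicate 1, edgeR called 10 of 10 genes and 3943 genes in all (28.5%), with a median of 3.03 over the 10. Over all alternatives, the adjusted p-values of the 10 genes were between 1.63e-05 and 0.480.

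**Figure D4:**
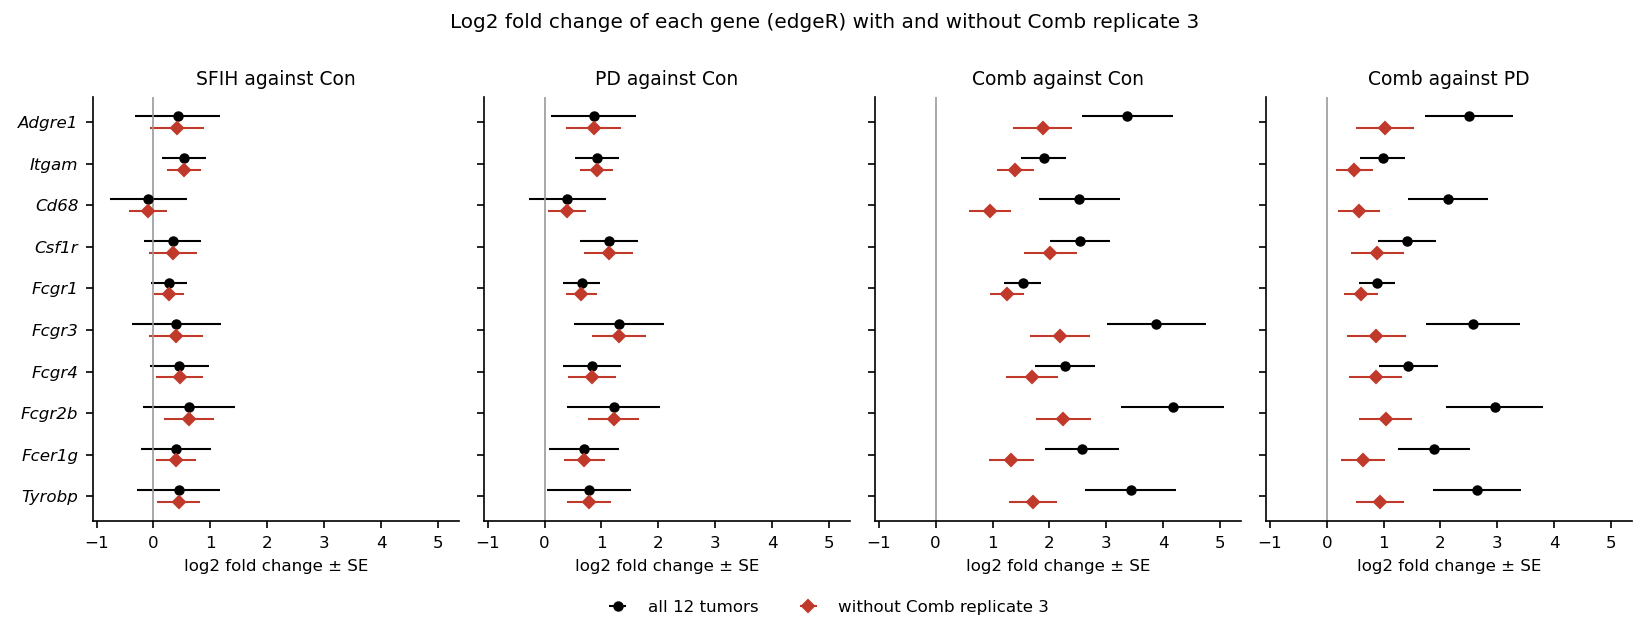
Log2 fold change from edgeR with its standard error for the 10 genes in 4 comparisons, with all 12 tumors (black circles) and without Comb replicate 3 (red diamonds). In the comparisons with Comb, most of the diamonds lie well below the circles, and the 2 comparisons without Comb are close to the same in both fits.

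Comb was also compared with each single treatment. Against PD, the median of the 10 log2 fold changes was 2.0 (-0.0029 over all genes), from 0.88 for Fcgr1 to 2.95 for Fcgr2b, and 10 of 10 were above 0 (49.8% of all genes). By edgeR 0 of 10 passed (0.0% of all genes; adjusted p of 0.243 to 0.251), with 10 of 10 at an unadjusted p under 0.05 (18% of all genes). That count was 6 of 10 without PD replicate 1 (8.59% of all genes), 7 of 10 without PD replicate 3 (9.37%) and 5 of 10 in a fit of only the groups compared (5.24%). DESeq2 called 5 of 10 (Adgre1, Cd68, Fcgr2b, Fcgr3 and Tyrobp), against 3.10% of all genes, and limma voom 9 of 10 (all but Itgam), against 7.98%. All 3 Comb tumors were above all 3 PD tumors in 0 of 10 genes, against 6.16% of all genes (1 of 10 on library size, against 4.25%). On TMM-scaled CPM, Comb replicate 1 was below PD replicate 2 in each. The median without Comb replicate 3 was 0.87, and edgeR, DESeq2 and limma voom each called 0 of 10 (0.0%, 0.22% and 0.0% of all genes). In edgeR without that tumor, 2 of 10 had an unadjusted p under 0.05 (9.02% of all genes), and without Comb replicate 1 it called 9 of 10 (15.2%).

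Against SFIH, the median was 2.41 (-0.05 over all genes), from 1.26 for Fcgr1 to 3.54 for Fcgr2b, and 10 of 10 were above 0 (46.4% of all genes). By edgeR 0 of 10 passed (0.0% of all genes), with adjusted p-values of 0.128 to 0.130 and 10 of 10 at an unadjusted p under 0.05 (19.0% of all genes). DESeq2 and limma voom called 10 of 10 (8.59% and 15.0% of all genes). All Comb tumors lay above all SFIH tumors in 7 of 10 genes, against 7.65% of all genes, and in 6 of 10 on library size, against 4.65%. Leaving out Comb replicate 3 gave a median of 1.26, and then edgeR, DESeq2 and limma voom called 0 of 10 (0.0%, 0.69% and 0.0% of all genes). In edgeR, 10 of 10 still kept an unadjusted p under 0.05 (10.8% of all genes). Leaving out Comb replicate 1 gave 10 of 10 by edgeR (22.5%).

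The antibody effect was then taken over both levels of SFIH, as the mean of PD and Comb against the mean of Con and SFIH (6 tumors against 6). The log2 fold changes were between 0.96 for Fcgr1 and 2.40 for Fcgr3, with a median of 1.59 (-0.03 over all genes) and 10 of 10 above 0 (47.1% of all genes). By edgeR 0 of 10 passed (0.0% of all genes), with adjusted p-values from 0.0973 for Csf1r to 0.138 for Cd68 and 10 of 10 at an unadjusted p under 0.05 (18.7% of all genes). DESeq2 and limma voom called 10 of 10 (9.28% and 20.7% of all genes). Leaving out Comb replicate 3 gave a median of 1.03, where edgeR and limma voom called 0 of 10 (0.0147% and 0.0514% of all genes). At an unadjusted p under 0.05, edgeR then had 10 of 10, against 19.5% of all genes. DESeq2 without that tumor called 8 of 10 (all but Adgre1 and Cd68), against 7.30%. Without Comb replicate 1, edgeR called 10 of 10, against 17.1%. All 6 tumors with the antibody were above all 6 without it in Csf1r and Fcgr1, 2 of 10 genes against 1.12% of all genes. On library size this held for Csf1r alone, 1 of 10 against 0.661%.

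Csf1r and Fcgr1 were thus the genes whose levels did not overlap between tumors with and without the antibody. Csf1r was 132, 59.1 and 121 in Con and 120.4, 133 and 143 in SFIH, and its lowest value with the antibody was 160.1 in PD replicate 1. Its estimate over both levels of SFIH was 1.66 ± 0.36 with all tumors and 1.40 ± 0.31 without Comb replicate 3 (SE). For Fcgr1 the estimates were 0.96 ± 0.23 and 0.82 ± 0.20. Itgam had 1.14 ± 0.28 and 0.89 ± 0.22, and these 3 genes had the smallest standard errors of the 10.

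Whether the antibody effect differed with SFIH was tested as an interaction. The 10 estimates were between 0.44 for Itgam and 2.32 for Fcgr2b, 10 of 10 above 0 (47.6% of all genes), with a median of 1.78. By edgeR 0 of 10 passed (0.0% of all genes), each with an adjusted p of 0.894, and 1 of 10 (Cd68) had an unadjusted p under 0.05 (2.55% of all genes). DESeq2 called 0 of 10 (0.00743% of all genes) and limma voom 0 of 10 (0.0%), with 5 of 10 (4.58% of all genes) and 8 of 10 (13.5%) at an unadjusted p under 0.05. The median without Comb replicate 3 was 0.44, the estimate for Itgam was -0.05, and 0 of 10 had an unadjusted p under 0.05 in edgeR, against 1.55% of all genes, whereas without Comb replicate 1 it was 8 of 10, against 17.2%. The standard errors of the 10 estimates in edgeR were 0.45 to 1.15, and no estimate passed the adjusted threshold in any of the 3 tools.

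The partners of the 10 genes were read from 4 lists, in which 57 of 64 genes could be tested. None of the 57 passed edgeR's adjusted threshold in any of the 6 group comparisons. In Comb against Con, 41 of the 57 were higher and 3 lower at an unadjusted p under 0.05 (25.3% of all genes in either direction), and DESeq2 called 38 higher and 2 lower (14.8% of all genes). Without Comb replicate 3, 29 were higher and 3 lower at the unadjusted threshold (18.8% of all genes), and DESeq2 called 13 higher and 0 lower (5.43%). By list and with all tumors, the genes listed for Fc receptor signalling, which include phosphatases, had 15 higher and 1 lower of 17 at the unadjusted threshold. Their median log2 fold change was 1.37. The largest value was 3.19 for the tyrosine kinase Btk and the lowest -0.65 for Plcg2, the phospholipase downstream of Syk. The list of receptors drawn up around Tyrobp and Fcer1g, not all of which signal through these adaptors, had 11 of 15 higher with a median of 2.53. It was led by Clec7a (3.79), the beta-glucan receptor Dectin-1, and Trem1, a receptor of neutrophils and monocytes, was the lowest (0.10). Without Comb replicate 3, 11 were higher and 1 lower in the first list and 9 and 0 in the second, and the medians were 0.91 and 1.42, with 1.79 for Btk, -0.49 for Plcg2, 2.18 for Clec7a and 0.67 for Trem1.

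Among the integrin partners, 6 of 11 were higher and 1 lower at an unadjusted p under 0.05 in Comb against Con (25.3% of all genes in either direction), with a median of 1.41. The counts without Comb replicate 3 were 3 higher and 1 lower (18.8%). Itgb2, the beta chain that pairs with Itgam, had 2.66, and Itgad, a related alpha chain, had -0.91. Itgb2 was 25.1, 15.6 and 24.4 CPM in Con and 45.8, 106 and 259.9 in Comb. Of the ligands of Csf1r and the factors of the macrophage lineage, 9 of 14 were higher and 1 lower (25.3% of all genes), and 6 and 1 without Comb replicate 3 (18.8%). The median with all tumors was 1.11, from 4.09 for the transcription factor Tfec to -0.84 for Bhlhe40. Csf1 and Il34, the ligands themselves, were looked at after the values were known and had 0.27 and -0.45, so the ligand genes did not share the values of their receptor. Leaving out Comb replicate 3 gave medians of 0.74 in both lists, with 1.80 for Itgb2, -0.34 for Itgad, 2.56 for Tfec, -0.88 for Bhlhe40 and 0.55 for Csf1, while Il34 had 0.011, on the other side of 0.

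The antibody over both levels of SFIH gave 40 of the 57 partners higher and 2 lower at an unadjusted p under 0.05 (18.7% of all genes in either direction), and DESeq2 called 25 higher and 1 lower (9.28%). Without Comb replicate 3 the counts were 33 and 3 (19.5% of all genes), and 20 and 1 with DESeq2 (7.30%). With all tumors, the extremes by list were 1.95 for Btk and -0.09 for Plcg2, 2.83 for Clec7a and -0.16 for the NK cell receptor Ncr1, 1.58 for the integrin chain Itga4 and -1.34 for Itgad, and 2.52 for Tfec and -0.60 for Cebpb. For these genes the direction was the same without Comb replicate 3, with 1.25 for Btk, 2.02 for Clec7a, 1.30 for Itga4 and 1.75 for Tfec. The lowest genes then had -0.010 for Plcg2, -0.42 for Ncr1, -1.05 for Itgad and -0.54 for Cebpb. For SFIH against Con, 0 of the 57 were higher and 1 lower (2.25% of all genes), and for PD against Con 6 were higher and 1 lower (3.99%). The 5 genes outside the 10 with the pattern most like theirs over the 12 tumors were Cd52, 4632428N05Rik, Coro1a, Bscl2 and AB124611. Pearson's r with the mean of the 10 standardized genes was 0.997 for Cd52, a surface antigen of leukocytes, and 0.993 or more for the other 4. Without Comb replicate 3 it was 0.997 for Cd52 and between 0.9826 and 0.984 for the others.

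Markers of other cells were read beside these results, because several of the 10 genes are not particular to macrophages. Another 15 pan-macrophage genes summed to 1844, 1111 and 1989 CPM in Con, 4512 in PD replicate 2 and 2123, 6834 and 25391 in Comb, with 15 of 15 highest in Comb replicate 3. Genes of all leukocytes, such as Ptprc, summed to 459, 269 and 469 in Con and 568, 1358 and 4548 in Comb, with 6 of 6 highest in Comb replicate 3. With 1001 in PD replicate 2, the tumors highest in the 10 genes were also the highest in this list. This did not hold for each type of leukocyte. NK cell markers were within the Con range (38.6 to 65.1) in PD replicate 2 (45.1) and Comb replicate 2 (53.6). Monocyte genes summed to 195 to 271 in Con tumors, 284 to 363 in the SFIH group, 333 to 588 in PD and 612, 737 and 1798 in Comb, and T cell genes to 25.6, 24.0 and 40.5 in Con, 120.3 in PD replicate 2 and 37.4, 133 and 343 in Comb.

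Mast cells use Fcer1g and Fcgr3, and their 8 markers summed to 20.0 to 28.3 in Con tumors, 28.1 to 43.5 in the SFIH group, 33.8 to 58.8 in PD and 54.6, 222 and 1366 in Comb. Of the 8, 7 were highest in Comb replicate 3, where the protease gene Tpsb2 reached 549 and the IgE receptor gene Ms4a2 21.6. Their part in the values of Fcer1g and Fcgr3 was not tested. NK cell markers summed to 38.6 to 65.1 in Con tumors, 34.1 to 71.5 in the SFIH group, 36.4 to 45.1 in PD and 43.0, 53.6 and 248 in Comb, with 4 of 8 highest in Comb replicate 3 and 1 of 8 at 0 there. Neutrophil markers summed to 32.4 to 91.4 in Con tumors, 47.1 to 49.0 in the SFIH group, 17.4 to 98.6 in PD and 59.6, 114 and 940.2 in Comb, and the last value was almost all Retnlg (907), while S100a8 was 8.41 there and 39.3, 10.7 and 15.96 in Con.

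B cells express Fcgr2b, and their markers were near 0, summing to 1.0 to 4.29 in Con tumors, 3.56 to 8.87 in the SFIH group, 2.77 to 5.99 in PD and 4.46, 11.04 and 19.3 in Comb. Pax5, Blk and Fcer2a were at 0 in all Con tumors, and 7 of the 8 markers were at 0 in Comb replicate 3. That tumor nevertheless had the highest sum of the 12, all of it Cd79b (named after its value was seen), and in Comb replicate 2, the second highest tumor in Fcgr2b, 6 of the 8 were above every Con tumor. The part of B cells in the values of Fcgr2b was not tested. Markers of epithelial cells, from which MC38 derives, summed to only 4.72 to 6.75 in Con, with Cldn7 at 0 in all 3, 2.91 to 9.94 in the SFIH group, 3.84, 22.9 and 5.09 in PD and 5.24, 23.1 and 133 in Comb. The 3 tumors with the highest sums were those with the highest levels of the 10 genes, and 8 of 8 epithelial markers were highest in Comb replicate 3. These markers were low in the Con tumors. No marker of the MC38 cells themselves was read, so the sums do not measure the amount of tumor cells.

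Markers of the tissue around a tumor under the skin also differed among the Comb tumors. The 8 skeletal muscle genes summed to 6.01 to 11.2 in Con tumors, 7.94 to 41.1 in the SFIH group, 3.54 to 132 in PD and 642, 6.21 and 6617 in Comb, with 8 of 8 highest in Comb replicate 3. Comb replicate 2, the second highest tumor in all 10 genes, had a muscle sum within the Con range, and PD replicate 2, the third highest, had the lowest of the 12. Adipocyte genes summed to 33.3 to 59.1 in Con tumors, 48.8 to 147 in the SFIH group, 38.8 to 85.5 in PD and 59.6, 511 and 1399 in Comb, and fibroblast genes to 2149 to 2643 in Con tumors, 1015 to 3537 in the SFIH group, 4116 to 6783 in PD and 2919, 11703 and 22756 in Comb. The sums are led by their abundant genes. Of the 8 adipocyte genes, 8 were above every Con tumor in Comb replicate 2, 1 in PD replicate 2, and 6 were highest in Comb replicate 3. Of the 7 fibroblast genes these counts were 5, 4 and 4, and Pdgfrb was lower in Comb than in Con, with -0.74 (named after its value was seen). The part of these cell types in the levels of the 10 genes was not tested.

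**Figure D5:**
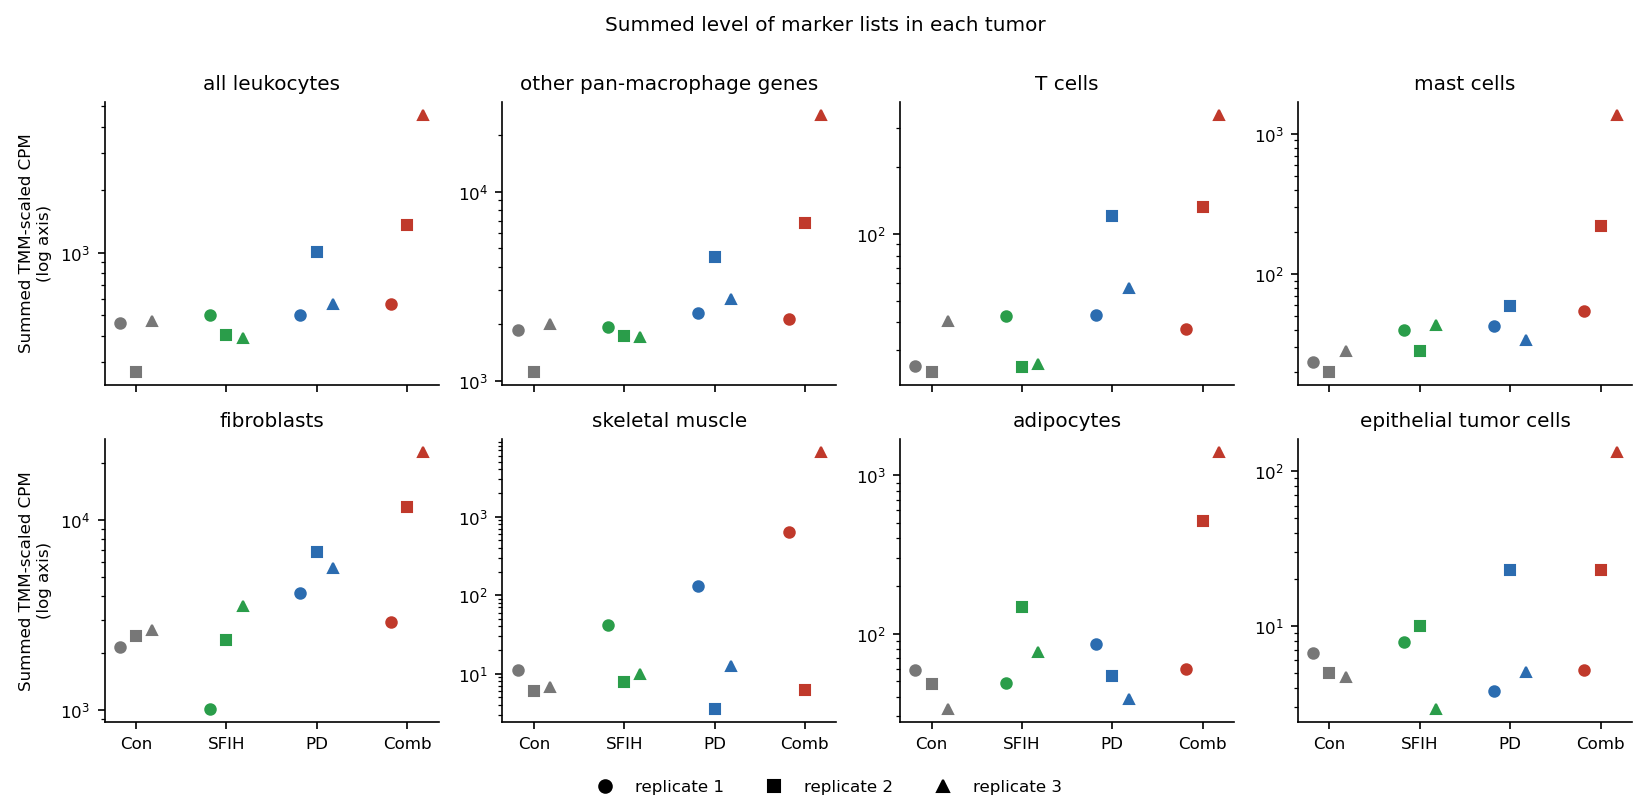
Summed TMM-scaled CPM (log axis, scaled for each panel) of the lists for all leukocytes, other pan-macrophage genes, T cells, mast cells, fibroblasts, skeletal muscle, adipocytes and epithelial cells in the 12 tumors, by group, with 1 point per tumor and a symbol per replicate number. Comb replicate 3 is the highest tumor in all 8 panels, and among these 8 lists Comb replicate 2 lies within the Con range for skeletal muscle only.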

How the data were processed

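The authors deposited raw read counts per gene symbol, with 1 column for each of 12 tumors, from QuantSeq 3′ mRNA-Seq libraries read as single-end reads of 75 bases on a NextSeq 500. The aligner, counting tool, genome build and annotation are not given in the sources used here. Columns were assigned to tumors through the sample descriptions. The 10 genes and all gene lists were chosen with earlier results of these data known. The counts were filtered with filterByExpr and scaled by TMM, and edgeR 4.0.16 in R 4.3.3 fitted all 12 tumors with a coefficient per group and tested 7 comparisons by two-sided quasi-likelihood tests. P-values were adjusted by Benjamini and Hochberg over 13464 genes with a threshold of 0.05. DESeq2 1.42.0 and limma 3.58.1 (voom with sample quality weights) were alternatives, beside other scalings, other filters, only the groups compared, the replicate number as a block and leaving out each tumor. DESeq2 and limma voom without Comb replicate 3, and the lists of partners without it, were added after the data were seen. The 10 genes are named in each comparison, and from each list of partners only the highest and lowest gene in Comb against Con and over both levels of SFIH, except where stated. The 17 lists of partners and markers hold 172 entries, of which 170 were in the table, and a marker list is given as its sum of CPM. Shares have 95% Wilson intervals. Replicate columns differed by more than counting error (chi-square per gene of 10.8 to 364), so none was counted as a copy. Promoters came from RefSeq and 3′ ends from GENCODE M21, both used only for sequence and for overlaps between genes. The fits were tested on simulated counts with 200 genes changed 4-fold in Comb, a common spread for all genes and no outlying tumor. With all tumors, edgeR recovered 74% with 5 false calls, DESeq2 79.5% with 28 and limma voom 73% with 5. Without Comb replicate 3, false calls were 7 for edgeR, 22 for DESeq2 and 9 for limma voom. Python 3.11.15, pandas 2.3.3, scipy 1.17.1 and matplotlib 3.10.9 served for the remaining work.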

Additional observations from a re-analysis of the deposited data

How the results depend on the processing

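Over the alternatives run, 1585 of 1590 log2 fold changes of the 10 genes kept their direction. The exceptions were Cd68 in SFIH against Con (0.0061 without Con replicate 1, with -0.23 to 0.0061 over the tumors left out), Fcgr1 in SFIH against Con (-0.0027 without Con replicate 2, -0.0027 to 0.46), Cd68 in PD against Con (-0.014 without PD replicate 2, -0.014 to 0.59), and Itgam in the interaction without Comb replicate 3 (-0.051 with edgeR, -0.051 to 0.77 over the tumors left out, and -0.033 with DESeq2), and the cause was not tested. With DESeq2, 10, 5, 10 and 10 of the 10 genes were called in Comb against Con, PD and SFIH and over both levels of SFIH, with 1998, 417, 1157 and 1250 genes in all, and 4, 6 and 1 genes in SFIH against Con, PD against Con and the interaction. With limma voom and sample quality weights, 10, 9, 10 and 10 were called, with 2719, 1074, 2019 and 2786 genes in all and 83 in PD against Con. Without Comb replicate 3 in addition, DESeq2 called 9 of the 10 genes in Comb against Con and 8 over both levels of SFIH, with 740, 30, 94 and 994 genes in the 4 comparisons and 65 and 68 in SFIH and PD against Con, and limma voom called 0 of the 10, with 2 genes in Comb against Con, 7 over both levels of SFIH, 3 in SFIH against Con and 12 in PD against Con. Leaving out each tumor in turn, edgeR called 0 to 10 of the 10 genes in Comb against Con, 0 to 9 against PD, 0 to 10 against SFIH and 0 to 10 over both levels of SFIH, with 0 to 3943, 0 to 2100, 0 to 3117 and 0 to 2370 genes in all. The upper ends were without Comb replicate 1, and without Comb replicate 3 edgeR called 5 genes in Comb against Con and 2 over both levels. A fit with a tumor left out takes its spread from all groups. Without TMM the median of all genes in Comb against Con was -0.29 and that of the 10 genes 2.17, against -0.03 and 2.56 with TMM, and 1596 of 3407 genes with an unadjusted p under 0.05 were higher, against 2423 of 3406. Other scalings, other filters and the groups compared alone gave 0 calls in edgeR. Tumors with the same replicate number were mostly not alike (r above 0.1 in 6 of 18 pairs of tumors with the same number, from -0.288 to 0.409, and 2 of 12 tumors were most like one of their own number). A batch shared by number was not tested. The fit with the replicate number as a block called 0 of the 10 genes and 0 genes in every comparison, with adjusted p-values of 0.125 to 0.158 in Comb against Con. With 3 tumors a group, leaving out 1 library, Comb replicate 1, changed the calls of edgeR in the comparisons with Comb.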
